A study of Caenorhabditis elegans with 9 samples.

Results

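The transthyretin-like genes of *C. elegans*, whose names start with *ttr*, were followed in young larvae fed dsRNA against the chromatin factors LET-418 and MEP-1. The members were all probe sets of the Affymetrix *C. elegans* Genome Array that the platform annotation assigns to 1 gene only, with a *ttr* symbol. There were 41 such probe sets for 40 genes, of 22548 probe sets in all, and *ttr-24* was the only gene with 2. A further 3 probe sets name 2 *ttr* genes each and were kept apart. Of the 59 *ttr* genes in the WBcel235 annotation, 13 had no probe set under their name and were not analysed here, among them *ttr-33* and *ttr-11*.

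There were 3 groups of 3 arrays. Wild type animals (N2 Bristol) were fed as L4 larvae at 25 °C on HT115 bacteria making dsRNA of *let-418* (an insert of 440 bp), of *mep-1* (900 bp) or, as the reference, of *gfp*. Their eggs hatched without food, and the L1 larvae were fed the same bacteria for 3 h before total RNA was taken from whole animals. Arrays are labelled as batch 1, 2 or 3 in every group, and the labels do not say what arrays of 1 number share. Feeding RNAi reduces its target only in part and not equally in all tissues. In whole larvae, fewer cells of a type and less RNA per cell cannot be told apart.

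Transthyretin-like proteins form one of the large protein families that are particular to nematodes. Most are small and carry a signal peptide for secretion, and their fold is related to that of vertebrate transthyretin, which carries thyroid hormone and retinol-binding protein in blood. The roles of most members are not known. TTR-52 is the best described: it is secreted and binds phosphatidylserine on dying cells, which it links to the engulfment receptor CED-1.

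The authors deposited MAS5 signals, a linear intensity for each probe set, which were here brought to a common trimmed mean per array and compared on the log2 scale with limma over all probe sets. A call required both an adjusted p below 0.05 and a change of 2-fold or more. Ratios on the log2 scale are written as knockdown over *gfp(RNAi)*. The scaling factors were 0.743 to 1.55. *let-418* signal was not lower on *let-418(RNAi)*-labelled arrays (1783 ± 431, against 915 ± 98.9 in *gfp(RNAi)*) with a log2 ratio of 0.94 (adjusted p = 0.0043 from limma), and *mep-1* signal was not lower on *mep-1(RNAi)*-labelled ones (1565 ± 57.5, against 1497 ± 79.0, SD, n = 3 each). Where the dsRNA lies relative to the probes is unknown here, and the arrays are therefore called by what they are labelled. No detection calls were used. The 3 yolk protein genes of adults (*vit-2*, *vit-5* and *vit-6*) had summed signals of 82.7 to 104 (label *let-418(RNAi)*) and 67.1 to 104 (label *mep-1(RNAi)*), against 74.4 to 133 in *gfp(RNAi)*, most of it from *vit-6*. All 4 germ cell markers (*pgl-1*, *glh-1*, *him-3* and *rec-8*) rose on both kinds of knockdown array, with a summed signal of 3495 to 4936 (label *let-418(RNAi)*) and 5032 to 5619 (label *mep-1(RNAi)*), against 569.6 to 592 in *gfp(RNAi)*. Of 3 intestinal markers, *elt-2* was called higher in both comparisons (log2 ratios of 1.25 and 1.39, limma adjusted p = 0.0013 and 5.8e-04), and *ges-1* was lower without reaching the fold limit (-0.67 and -0.82, adjusted p = 0.020 and 0.0062). The pharyngeal muscle marker *myo-1* was likewise lower short of that limit (-0.97 and -0.93, adjusted p = 0.011 and 0.013). *elt-3* of the hypodermis passed the adjusted p upward in both comparisons, and *myo-3* of body wall muscle passed it downward for *mep-1(RNAi)*. The other markers of these tissues passed in neither comparison. Their log2 ratios were 0.02 and -0.36 (*elt-7*, intestine), -0.73 and -0.66 (*myo-2*, pharyngeal muscle) and -0.02 and 0.09 (*unc-54*, body wall muscle). In the hypodermis they were 0.004 and -0.07 (*dpy-7*) and 0.12 and 0.29 (*lin-26*). The neuron markers *rgef-1*, *unc-119* and *snb-1* did not pass either. The part of these markers in the *ttr* values was not tested.

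Of the *ttr* genes, 7 fell and none was called higher. On *let-418(RNAi)*-labelled arrays, 5 of the 41 probe sets were lower than in *gfp(RNAi)* larvae, namely *ttr-44*, *ttr-26*, *ttr-37*, *ttr-21* and *ttr-46*. This is 12.2% of the members, where 2.75% of all probe sets were called lower. On *mep-1(RNAi)*-labelled arrays, 7 of the 41 were lower (17.1%, where 3.3% of all probe sets were), the same 5 and *ttr-17* and *ttr-28*. The 0 members called higher stand beside 6.54% and 6.78% of all probe sets in the 2 comparisons. The *gfp(RNAi)* arrays are common to these comparisons. Counting both directions, 9.3% of all probe sets were called for *let-418(RNAi)* and 10.1% for *mep-1(RNAi)*. At an unadjusted p under 0.05 with no fold limit, 11 and 10 of the 41 members passed in either direction, beside 27.8% and 29.7% of all probe sets. Without the fold limit, 6 members were lower and 2 higher on *let-418(RNAi)*-labelled arrays, and 7 were lower and 0 higher on *mep-1(RNAi)*-labelled ones, beside 5.75% and 9.67% of all probe sets in the first comparison and 6.49% and 10.4% in the second.

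*ttr-44* had the largest change among the called members in both comparisons. Its scaled signal was 259, 247 and 276 on *let-418(RNAi)*-labelled arrays and 255, 178 and 166 on *mep-1(RNAi)*-labelled ones, against 1087, 941 and 748 in *gfp(RNAi)*. The lowest control value thus lay more than 2-fold above the highest knockdown value. The log2 ratio was -1.81 (standard error 0.19, adjusted p = 6.3e-05 from limma) for *let-418(RNAi)* and -2.22 (standard error 0.19, adjusted p = 1.1e-05) for *mep-1(RNAi)*. In the single batches it was -2.07, -1.93 and -1.44 for the first and -2.09, -2.41 and -2.18 for the second. The name of this probe set ends in _s_at, which Affymetrix uses for sets whose probes can match more than 1 transcript, although the annotation names *ttr-44* alone.

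*ttr-26* and *ttr-21*, on chromosome V like *ttr-44*, fell on both kinds of array. *ttr-26* had signals of 531, 442 and 429.7 (label *let-418(RNAi)*) and 366, 289 and 553 (label *mep-1(RNAi)*), against 1481, 1257 and 1318 in *gfp(RNAi)*. Its log2 ratios were -1.54 and -1.80 (standard error 0.21 each, adjusted p = 4.1e-04 and 1.2e-04 from limma). *ttr-21* had signals of 936, 741 and 757 (label *let-418(RNAi)*) and 637, 561 and 1015 (label *mep-1(RNAi)*), against 2435, 1856 and 2117 in *gfp(RNAi)*. In both genes the third array labelled *mep-1(RNAi)* was the highest of its group, yet still below every control array. *ttr-21* had log2 ratios of -1.40 and -1.57 (standard error 0.21 each, adjusted p = 8.6e-04 and 3.4e-04 from limma).

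*ttr-46* lay at the fold limit on *let-418(RNAi)*-labelled arrays. Its signals were 907, 794 and 1023 there and 839, 822 and 633 on *mep-1(RNAi)*-labelled ones, against 2089.8, 1772 and 1596 in *gfp(RNAi)*. The groups did not overlap, and the log2 ratios were -1.001 (standard error 0.16, adjusted p = 0.0014 from limma) and -1.25 (adjusted p = 2.6e-04). The first was 2.00-fold. With quantile normalized signals it was -0.96, with an offset of 21.1 added before log2 -0.98, without replicate 1 of *gfp(RNAi)* -0.90 and without replicate 2 of *let-418(RNAi)* -0.91, each short of the fold limit, while the ratio for *mep-1(RNAi)* stayed past it in these settings.

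*ttr-37*, on the X chromosome, was the dimmest gene called in both comparisons. It had signals of 59.4, 46.1 and 50.7 (label *let-418(RNAi)*) and 58.3, 42.2 and 31.2 (label *mep-1(RNAi)*), against 216, 172 and 99.2 in *gfp(RNAi)*. The control arrays differed by more than 2-fold among themselves, and replicate 3 was the lowest of them. The log2 ratios were -1.58 and -1.86 (standard error 0.33 each, adjusted p = 0.0069 and 0.0023 from limma). The methods' t-test was run here on the scaled log2 signals with equal variances, a form the paper does not spell out. At an unadjusted p of at most 0.01 and 2-fold, it called *ttr-37* in neither comparison.

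**Figure D1:**
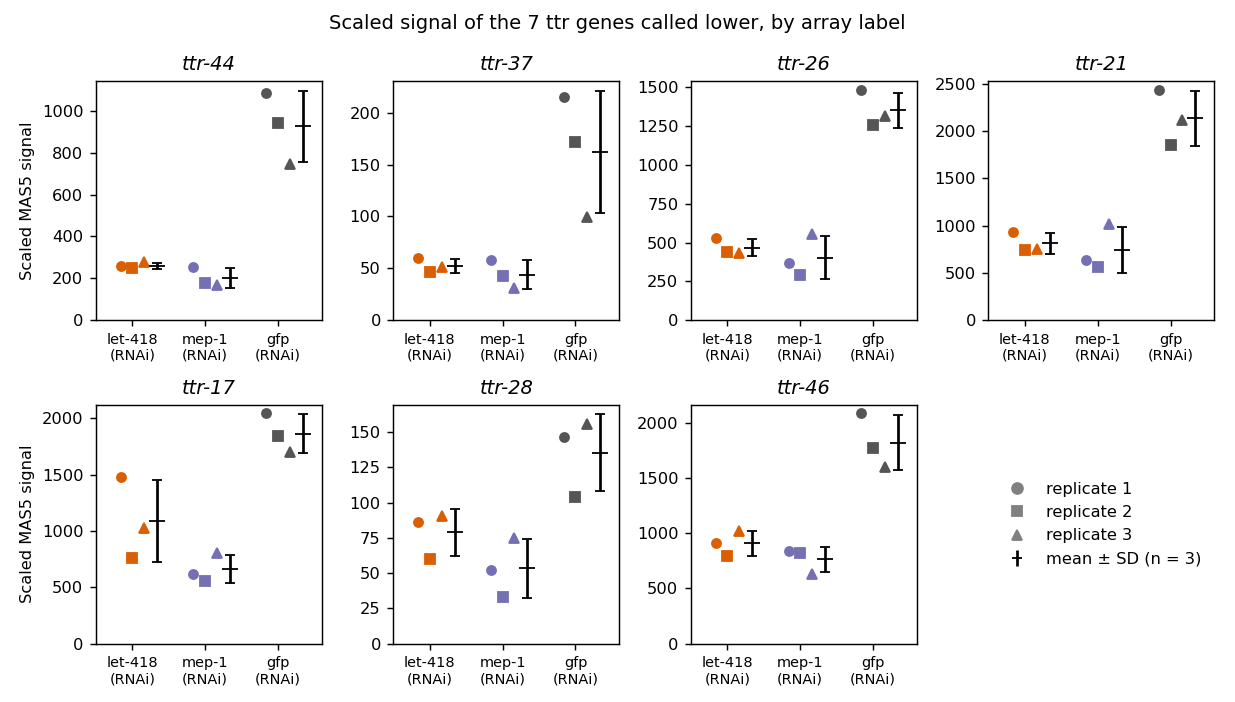
Scaled MAS5 signal (linear axis from 0) of the 7 *ttr* genes called lower, for the 3 arrays of each label, with symbols for replicates and black bars for the mean ± SD (n = 3). All knockdown arrays lie below all control arrays in each gene, from *ttr-44* (highest knockdown value 276, lowest control value 748) to *ttr-28* (90.6 and 104).

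*ttr-17* and *ttr-28* passed both thresholds only on *mep-1(RNAi)*-labelled arrays. The paper used qRT-PCR on randomly picked genes that its arrays called for a single knockdown. Each was unchanged in both knockdowns or deregulated in both. Its text does not say whether *ttr-17* was among them. *ttr-17* is the member for which the study designed qRT-PCR primers, so the primer pair is shown here to identify the transcript assayed, with no base singled out. The gene lies on chromosome IV.
*ttr-17* left primer: aacaaggaaggagaattcgag
*ttr-17* right primer: acatcctggtttggtattgc

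On the arrays *ttr-17* had signals of 1476, 763 and 1023 (label *let-418(RNAi)*) and 622, 559.8 and 805 (label *mep-1(RNAi)*), against 2044, 1845 and 1699 in *gfp(RNAi)*. Every knockdown array was below every control array, but replicate 1 of *let-418(RNAi)* was only a little lower than the lowest control. The log2 ratio was -0.83 (standard error 0.22, adjusted p = 0.027 from limma) for *let-418(RNAi)*, which passed the test and not the fold limit, and -1.51 (standard error 0.22, adjusted p = 6.7e-04) for *mep-1(RNAi)*. Without replicate 1 of *let-418(RNAi)* the first value was -1.07 and was called. Between the knockdowns the difference was -0.68 (95% interval -1.17 to -0.19, mep-1 over let-418, adjusted p = 0.78 from limma), so that it did not pass the test. Within the batches this difference was -1.25, -0.45 and -0.35.

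*ttr-28* was dimmer, with 86.5, 60.04 and 90.6 (label *let-418(RNAi)*) and 52.5, 32.9 and 74.7 (label *mep-1(RNAi)*), against 147, 104 and 155 in *gfp(RNAi)*. All knockdown values lay below all control values. The log2 ratios were -0.78 (standard error 0.32, adjusted p = 0.13 from limma) and -1.40 (standard error 0.32, adjusted p = 0.011), and the difference between the knockdowns was -0.62 (95% interval -1.32 to 0.08, adjusted p = 0.89). By the methods' t-test *ttr-28* was called in neither comparison. Over the 7 called genes, the 2 comparisons and the 3 batch numbers, 42 of 42 differences were below 0, which is a description only, since the genes were taken for being lower and the comparisons share their *gfp(RNAi)* arrays.

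The remaining 34 probe sets were called in neither comparison with *gfp(RNAi)*. Their median log2 ratio was 0.08 for *let-418(RNAi)*, with 18 above and 16 below 0, and -0.23 for *mep-1(RNAi)*, with 9 above and 25 below 0. Over all 41 members the medians were -0.11 and -0.31, beside -0.03 and 0.02 over all probe sets. The first median turned above 0 without replicate 2 of *let-418(RNAi)* (0.06) and without the members below the 25th percentile of signal (0.03). It was -0.26 without replicate 3 of *gfp(RNAi)*, -0.03 and -0.01 without its replicates 1 and 2, and -0.04 without replicate 3 of *let-418(RNAi)*. The second was -0.15 without replicate 1 of *gfp(RNAi)* and -0.60 with unscaled signals, where the median of all probe sets was -0.27. With *let-418(RNAi)*, 8 of the 41 members had all 3 arrays below all 3 control arrays and 2 had all above, beside 15.9% and 17.9% of all probe sets. With *mep-1(RNAi)* the numbers were 10 and 2, beside 15.1% and 18.6%.

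**Figure D2:**
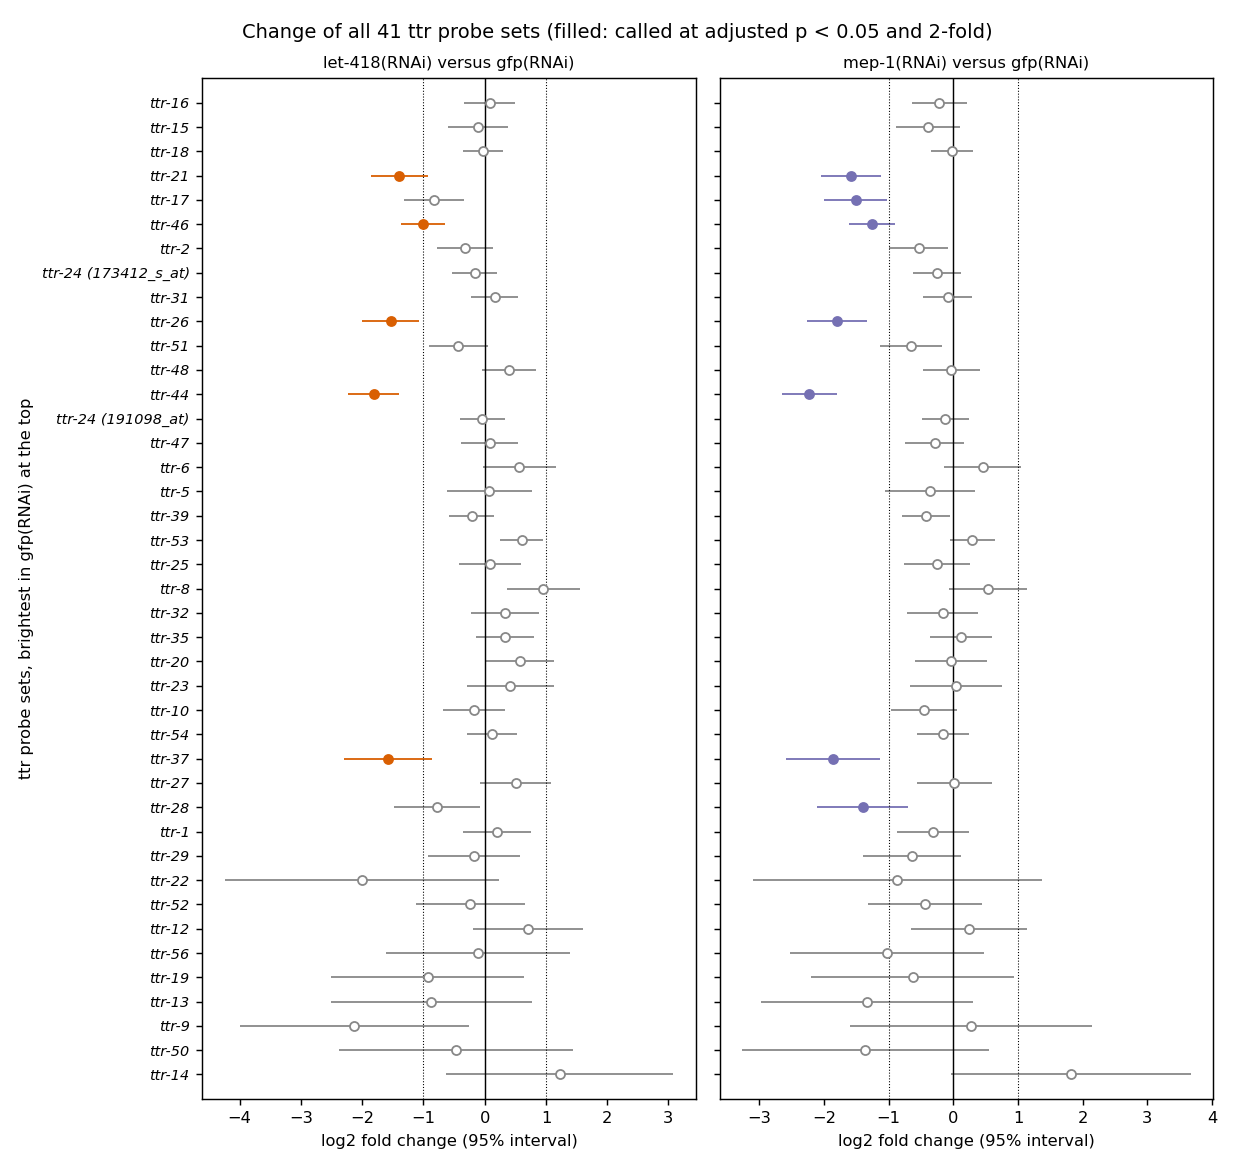
Log2 ratio against *gfp(RNAi)* with its 95% interval for each of the 41 *ttr* probe sets, on *let-418(RNAi)*-labelled arrays (left) and *mep-1(RNAi)* (right), with the probe sets brightest in *gfp(RNAi)* at the top. Filled points mark the 5 and 7 called members, all left of -1, and the intervals widen toward the dim probe sets at the bottom.

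*ttr-53* and *ttr-8* were the 2 members that passed an adjusted p of 0.05 in the upward direction, on *let-418(RNAi)*-labelled arrays only and short of the fold limit. They were named after their values were seen. *ttr-53* had signals of 576, 443 and 533 (label *let-418(RNAi)*) and 432, 407 and 406 (label *mep-1(RNAi)*), against 396, 344 and 285 in *gfp(RNAi)*, with log2 ratios of 0.60 (standard error 0.16, adjusted p = 0.024 from limma) and 0.29 (adjusted p = 0.25). *ttr-8* had 634, 380.3 and 472 (label *let-418(RNAi)*) and 412, 297 and 392 (label *mep-1(RNAi)*), against 381, 228 and 179 in *gfp(RNAi)*. Its arrays overlapped with the controls, and the log2 ratios were 0.96 (standard error 0.27, adjusted p = 0.035 from limma) and 0.54 (adjusted p = 0.21). Without replicate 1 of *gfp(RNAi)*, or without replicate 2 of *let-418(RNAi)*, *ttr-8* was called higher on *let-418(RNAi)*-labelled arrays.

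The 3 probe sets with the highest signals in *gfp(RNAi)* larvae were not called. *ttr-16* had 4376, 3425 and 4991 (label *let-418(RNAi)*) and 3404, 3684 and 3230.2 (label *mep-1(RNAi)*), against 4853, 4152 and 3132 in *gfp(RNAi)*, and the 3 groups overlapped. Its log2 ratios were 0.08 (95% interval -0.34 to 0.50) and -0.21 (-0.63 to 0.21). *ttr-15* had 3248 ± 613 (label *let-418(RNAi)*) and 2639 ± 125 (label *mep-1(RNAi)*), against 3571 ± 1066 in *gfp(RNAi)* (SD, n = 3 each), with log2 ratios of -0.11 and -0.39. *ttr-18*, on chromosome II, varied least between the groups, with 2382 ± 365 and 2368 ± 229, against 2400.1 ± 127 (SD, n = 3 each). Both of its log2 ratios were -0.02, with 95% intervals of -0.35 to 0.31 and -0.35 to 0.30. A change of 2-fold lies outside the intervals of *ttr-16*, *ttr-15* and *ttr-18*. The probe sets of *ttr-15* and *ttr-18* are _s_at sets like that of *ttr-44*, so their signals may come from several transcripts. Signals of different probe sets depend on their probes and do not rank the genes by mRNA.

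*ttr-52*, whose protein takes part in the clearance of dying cells, lay near the floor of the array. Its signals were 19.7, 25.7 and 12.3 (label *let-418(RNAi)*) and 16.8, 14.6 and 16.7 (label *mep-1(RNAi)*), against 27.9, 20.6 and 17.6 in *gfp(RNAi)*. The 25th percentile of all scaled signals was 21.1. The log2 ratios were -0.23 (95% interval -1.12 to 0.65) and -0.43 (-1.32 to 0.45), so that a change of 2-fold downward was not excluded.

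A list of 17 genes of programmed cell death and of the clearance of dying cells was taken, all of them measured. Of these, 0 were called for *let-418(RNAi)* and 1 for *mep-1(RNAi)*, where 9.3% and 10.1% of all probe sets were. *egl-1*, which encodes the trigger of programmed cell death, had signals of 47.3, 57.3 and 69.0 (label *let-418(RNAi)*) and 67.7, 64.9 and 82.8 (label *mep-1(RNAi)*), against 29.2, 32.4 and 37.5 in *gfp(RNAi)*. Its log2 ratios were 0.80 (adjusted p = 0.064 from limma) and 1.12 (standard error 0.26, adjusted p = 0.013), and only the second passed. *nrf-5*, which encodes a secreted lipid-binding protein that acts with TTR-52, rose with log2 ratios of 0.72 and 0.62 (limma, adjusted p = 0.0032 and 0.0072), below the fold limit. On *mep-1(RNAi)*-labelled arrays *ced-12* (0.64) also passed the adjusted p alone upward, and *ced-10* (-0.71) and *dyn-1* (-0.61) downward. *ced-1* itself had log2 ratios of 0.41 and -0.04 (adjusted p = 0.60 and 0.96). The median of the list was 0.07 and -0.02.

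TTR-33 is known to protect dopaminergic neurons from oxidative stress, and a list of antioxidant and dopamine genes was taken for this reason. Of 17 genes 15 were measured, and 3 were called for *let-418(RNAi)* and 2 for *mep-1(RNAi)*, where 9.3% and 10.1% of all probe sets were. *ctl-2*, a catalase gene, rose to 1972 ± 393 (label *let-418(RNAi)*) and 2391 ± 413 (label *mep-1(RNAi)*), against 958 ± 72.4 in *gfp(RNAi)* (SD, n = 3 each, log2 ratios of 1.03 and 1.31, adjusted p = 0.0018 and 3.0e-04 from limma). *gst-4*, a glutathione S-transferase gene, had 229 ± 12.3 and 219 ± 39.6, against 1315 ± 272 (log2 ratios of -2.51 and -2.58, adjusted p = 3.0e-06 and 2.0e-06). *dat-1*, the dopamine transporter gene, had log2 ratios of -1.12 (adjusted p = 0.038) and -1.04 (adjusted p = 0.051), of which the first alone passed. Short of the fold limit, the superoxide dismutase gene *sod-1* was lower in both comparisons (-0.66 and -0.56, adjusted p = 0.0079 and 0.017), and *sod-2* was higher for *mep-1(RNAi)* (0.59, adjusted p = 0.0499). *R09H10.3*, a gene of the hydroxyisourate hydrolase group to which the transthyretin fold is related, had signals of 274 ± 75.3 and 225 ± 28.98, against 419 ± 205 in *gfp(RNAi)* (SD, n = 3 each), and was not called (adjusted p = 0.28 and 0.10 from limma).

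Calls in adjacent *ttr* genes are given as a description only. In the WBcel235 annotation, used here only for gene order, 8 pairs of members measured alone had no other protein-coding gene or pseudogene between them. In 4 of these pairs 1 gene was called lower, in 0 pairs were both called, and in the other 4 neither was. *ttr-28* counts in its pair with *ttr-27* and again in its pair with *ttr-29*. With 12.2% and 17.1% of the members called in the 2 comparisons, 8 pairs are too few for the 0 to describe neighbours. *ttr-26* stands at the end of a row with *ttr-24* and *ttr-25* on chromosome V. There *ttr-25* had signals of 306 ± 81.1 (label *let-418(RNAi)*) and 238 ± 22.5 (label *mep-1(RNAi)*), against 288 ± 76.7 in *gfp(RNAi)* (SD, n = 3 each), with log2 ratios of 0.09 (95% interval -0.42 to 0.60) and -0.25 (-0.75 to 0.26). The brighter of the 2 *ttr-24* probe sets, also an _s_at set, had -0.17 and -0.25, and the other had -0.04 and -0.12. These intervals of *ttr-25* do not overlap those of *ttr-26*, which were -1.997 to -1.07 and -2.26 to -1.34.

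*ttr-17* and its neighbour *ttr-16* on chromosome IV likewise had intervals that did not overlap on *mep-1(RNAi)*-labelled arrays, -1.99 to -1.02 and -0.63 to 0.21. In the row *ttr-27*, *ttr-28* and *ttr-29* on chromosome V, the log2 ratios on those arrays were 0.02, -1.40 and -0.64. The difference between neighbours was not itself tested, here or for *ttr-25* and *ttr-26*. These neighbours were set side by side because 1 was called and the other was not. Separate intervals partly follow from that choice. Of the 7 called genes, 5 lie on chromosome V, which holds 16 of the 40 measured genes, 1 on chromosome IV (9 measured) and 1 on the X chromosome (6 measured).

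**Figure D3:**
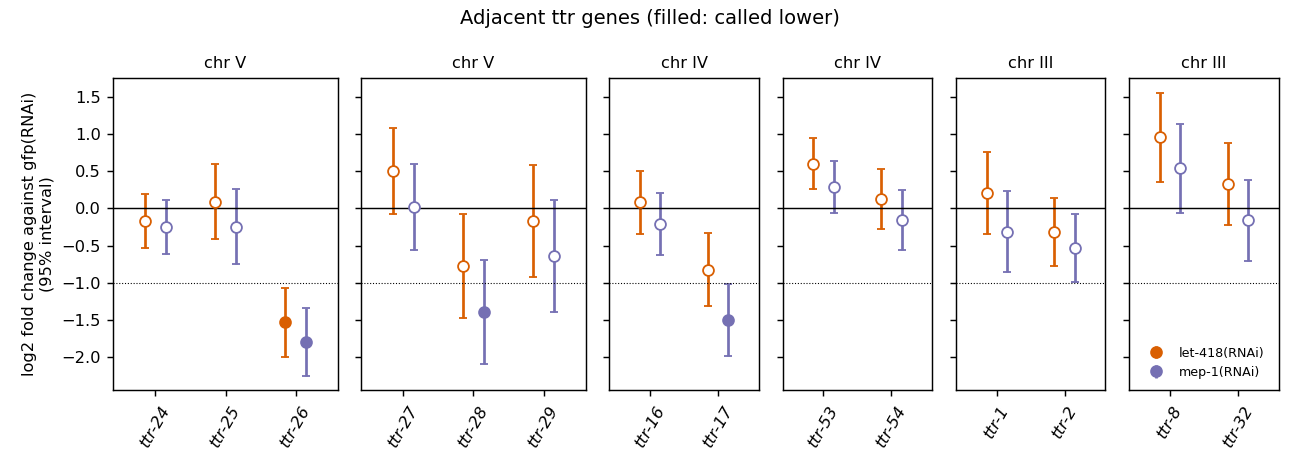
Log2 ratio against *gfp(RNAi)* with its 95% interval for *ttr* genes that are direct neighbours in the WBcel235 annotation, on *let-418(RNAi)*-labelled arrays (orange) and *mep-1(RNAi)* (violet). Filled points mark called genes: *ttr-26* in both, and *ttr-28* and *ttr-17* for *mep-1(RNAi)*, beside neighbours with open points.

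Most dim members varied more between replicates than the brighter ones, although *ttr-52* did not stand out (SD 0.37 on the log2 scale). The 7 members below the 25th percentile of all probe sets by mean log2 signal averaged 5.75 to 22.04 in *gfp(RNAi)* and a median SD of 0.98 on the log2 scale between replicates, and 0 of them was called. The other 34 had 17.4 to 4046 and a median SD of 0.30. They include *ttr-22*, whose SD of 1.64 was the largest of all members (the highest among the 7 dim ones was 1.21). *ttr-9* had 11.3, 1.27 and 0.871 (label *let-418(RNAi)*) and 16.3, 11.3 and 10.2 (label *mep-1(RNAi)*), against 14.2, 7.97 and 9.33 in *gfp(RNAi)*, and its log2 ratio of -2.13 for *let-418(RNAi)* had a 95% interval of -4.002 to -0.26 (adjusted p = 0.12 from limma). Without replicate 1 of *let-418(RNAi)* it was called lower. *ttr-56*, another dim member, was called lower for *mep-1(RNAi)* without replicate 1 of that label. *ttr-22* had 64.2, 8.25 and 5.05 (label *let-418(RNAi)*) and 58.2, 6.88 and 72.1 (label *mep-1(RNAi)*), against 27.7, 72.2 and 86.8 in *gfp(RNAi)*, so that single arrays of all groups stood far from the rest. *ttr-14* had log2 ratios of 1.22 and 1.81 that did not pass (adjusted p = 0.39 and 0.18). *ttr-9*, *ttr-56*, *ttr-22* and *ttr-14* were named after their values were seen.

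Between the knockdowns no *ttr* gene was called. The adjusted p-values of the 41 members were 0.78 to 1.0 from limma, 3 members had an unadjusted p under 0.05 (5.61% of all probe sets did), and limma called 0.00443% of all probe sets. The methods' t-test called 0 members and 0.368% of all probe sets. The signs were uneven: 37 of the 41 members were lower on *mep-1(RNAi)*-labelled arrays than on those labelled *let-418(RNAi)*, with a median log2 difference of -0.29, beside 0.03 over all probe sets, of which 54.2% were higher. Of the 34 brighter members 33 were lower. All 3 arrays lay below all 3 of *let-418(RNAi)* in 3 members and above in 0, beside 4.84% and 6.68% of all probe sets. The median was -0.47, -0.19 and -0.27 in batches 1, 2 and 3, where 35, 27 and 29 members were lower and 6, 14 and 12 higher. It was -0.21 without replicate 1 of *let-418(RNAi)* and -0.43 without replicate 2. These are descriptions of members that share arrays, with no test.

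The summed scaled signal of the 41 probe sets differed between arrays of the same label. It was 30521, 21900.5 and 29266 on *let-418(RNAi)*-labelled arrays and 22068, 21710.0 and 24016.5 on *mep-1(RNAi)*-labelled ones, against 36937, 31105 and 26163 in *gfp(RNAi)*. Control replicate 1 was thus the highest array and control replicate 3 overlapped with *let-418(RNAi)*. The called genes alone summed to 4256, 3093 and 3650 (label *let-418(RNAi)*) and 2829, 2484 and 3278 (label *mep-1(RNAi)*), against 9499, 7947 and 7733 in *gfp(RNAi)*, and being chosen by their calls, they differ by construction. The other 34 summed to 26265, 18808 and 25616 and to 19238, 19226 and 20739, against 27438, 23157 and 18430 in *gfp(RNAi)*. Within the batches the median of all members for *let-418(RNAi)* was -0.07, -0.31 and 0.25, and for *mep-1(RNAi)* -0.46, -0.50 and 0.06, so that the median of the family was below 0 in batches 1 and 2 only.

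**Figure D4:**
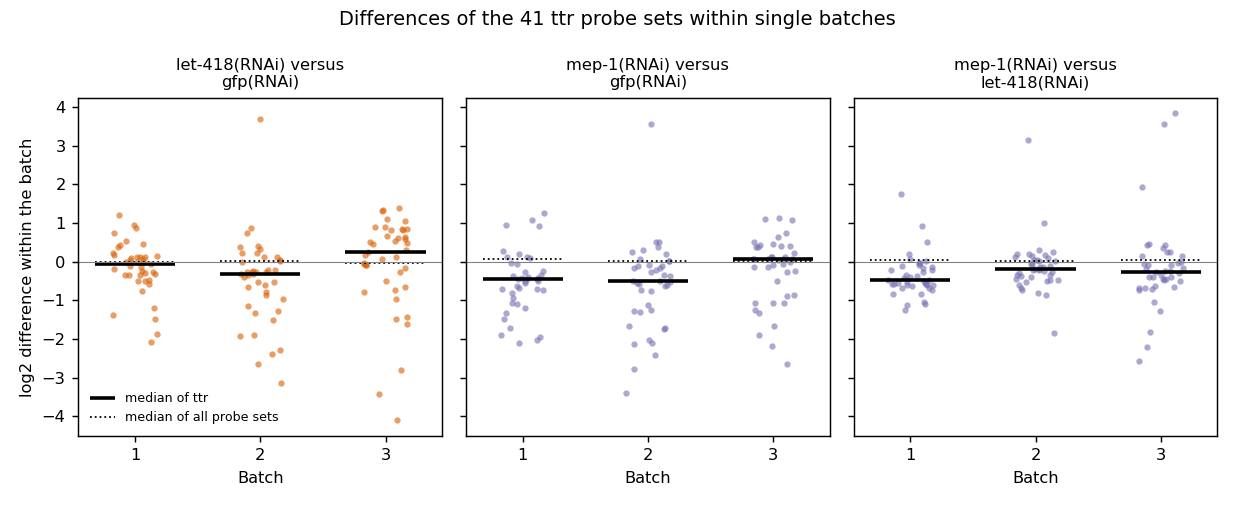
Log2 difference of each of the 41 *ttr* probe sets within single batches, for *let-418(RNAi)* against *gfp(RNAi)*, *mep-1(RNAi)* against *gfp(RNAi)* and *mep-1(RNAi)* against *let-418(RNAi)*, with the *ttr* median (thick line) and the median of all probe sets (dotted). The *ttr* median lies below that of all probe sets in every batch only in the third panel, at -0.47, -0.19 and -0.27.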

How the data were processed

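RNA of 9 samples (3 groups of 3) was hybridised to Affymetrix *C. elegans* Genome Arrays. The authors deposited MAS5 signals, a linear intensity per probe set (AGCC software, versions not given in the sources used here). Each of the 9 value columns matched 1 sample. Their methods describe scaling each chip's trimmed mean, but the trimmed means differed, so the signals were scaled here to 324, the geometric mean of the trimmed means (2.0% trimmed at each end). All 22548 probe sets were fitted as log2 values by limma 3.58.1 (R 4.3.3) (3 group means, 9 arrays, eBayes with trend, 2-sided, Benjamini-Hochberg adjusted over all probe sets). The fit was tested on simulated data. Tables and figures used Python 3.11.15, numpy 2.4.6, pandas 2.3.3, scipy 1.17.1 and matplotlib 3.10.9. A gene with several probe sets was represented by the brightest. The text names *ttr* genes called in either comparison with *gfp(RNAi)* (up to 12 per direction), the 5 brightest in *gfp(RNAi)*, those whose probe sets differ in call (0 did), *ttr-17*, *ttr-52*, *ttr-33*, *ttr-11*, *let-418*, *mep-1* and called genes of the lists. Other genes named were added after their values were seen. The members and lists were chosen with earlier results of these data known. The labels give arrays of the 3 groups the same batch numbers, which were paired only for the differences within batches. The main fit had no batch term. Residual correlations of same-numbered arrays were -0.03 to 0.10 (9 pairs), and of others -0.14 to 0.10 (18 pairs). An alternative fit had the number as a block. The paper describes independent batches. The number of arrays limits the precision. Promoter sequences and motifs were not analysed here.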

Additional observations from a re-analysis of the deposited data

How the results depend on the processing

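The counts of called *ttr* probe sets, 5, 7 and 0, stayed within 1.5 times with unscaled or quantile normalized signals, the offset, without the probe sets below the 25th percentile, without trend, with only the 6 arrays compared, and with 1 probe set per gene. With the batch as a replicate block they were again 5, 7 and 0, the same genes, and the block changed no call of a named gene. Leaving out 1 array gave 5 to 7, 7 to 8 and 0 calls. The count for *let-418(RNAi)* was 8 with no fold limit, since *ttr-17*, *ttr-53* and *ttr-8* were added. The methods' t-test called 4 and 5 (6.92% and 6.72% of all probe sets), and after Benjamini-Hochberg adjustment 4 and 3 (5.33% and 4.5%), the second without *ttr-21*, *ttr-26*, *ttr-28* and *ttr-37*. The cause was not tested.

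The median for *mep-1(RNAi)* against *let-418(RNAi)* was -0.50 with unscaled signals, where that of all probe sets was -0.18. Leaving out 1 array gave medians of -0.26 to 0.06 and -0.44 to -0.15 against *gfp(RNAi)* and -0.43 to -0.21 between the knockdowns. Among named genes, signs turned only in genes that were not called. For *let-418(RNAi)*, *ttr-15* had 0.0075 and *ttr-18* 0.069 with quantile normalization, and *ttr-18* had 0.084 for *mep-1(RNAi)*. With 1 array left out, the ranges for *let-418(RNAi)* were -0.370 to 0.080 (*ttr-15*), -0.091 to 0.231 (*ttr-16*), -0.098 to 0.112 (*ttr-18*) and -0.472 to 0.057 (*ttr-52*), and for *mep-1(RNAi)* -0.101 to 0.022 (*ttr-18*). Dim signals limit the 7 dim members.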

Other observations

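Of the 3 probe sets that name 2 *ttr* genes each, the set for *ttr-3* and *ttr-4* had signals of 209 ± 38.5 with the label *let-418(RNAi)* and 163 ± 18.9 with *mep-1(RNAi)*, against 336 ± 27.8 in *gfp(RNAi)* (SD, n = 3 each). Its log2 ratios were -0.70 (adjusted p = 0.019 from limma) and -1.05 (adjusted p = 0.0016), so that it was called lower in the second. The annotation gives *ttr-4* as a pseudogene. The set for *ttr-30* and *ttr-59* had log2 ratios of 0.34 and -0.05 (adjusted p = 0.24 and 0.90), and that for *ttr-49* and *ttr-40* had -0.76 and -1.05 (adjusted p = 0.49 and 0.29) from a signal of 38.9 ± 23.5 (SD, n = 3) in *gfp(RNAi)*. Neither passed.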
